A study of Mus musculus with 40 samples.

Results

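The genes described here encode the mitochondrial ribosome, the translocases that bring proteins into the mitochondrion, and factors of mitochondrial translation. They were chosen by the start of their symbols: a probe belonged to the set when its annotation gave a single gene symbol starting with Mrpl, Mrps, Timm, Tomm, Gfm, Mtif or Tufm. The rule found 68 genes among 6970 named genes. By symbol, 35 belonged to the large subunit of the mitochondrial ribosome (Mrpl), 13 to the small subunit (Mrps), 16 to import (Timm and Tomm) and 4 to translation factors (Gfm1, Gfm2, Mtif2 and Tufm). Array design 1 measured 44 of them with 48 probes, array design 2 measured 30 with 34 probes, and 6 genes were on both designs. All 82 probes were tested.

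Mouse embryos were cultured with 4-hydroperoxycyclophosphamide, a pre-activated form of the DNA-alkylating drug cyclophosphamide, at 40 µM for 5 h at 37 °C, and their total RNA was set against that of untreated embryos kept in culture at 37 °C. On each of 40 cDNA arrays RNA of treated embryos was paired with RNA of control embryos in the second colour, with 5 replicates on each design, each replicate in both dye orientations and each slide with 2 readouts. The labels used here give no strain, embryonic stage or number of embryos per pool. Nothing in the labels says that the replicates came from separate cultures, so a p-value here covers only the spread among these samples, possibly a technical one, and the number of arrays limits the precision.

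Values are ratios of treated over control embryos on a log2 scale, after every array's own median was subtracted. The log base is not stated and was taken as 2. The numerator is not stated either: channel 1 over channel 2 is the likely reading, from the channel order in the labels and from Ccng1 and Mdm2, targets of p53, which were then higher in treated embryos in 5 of 5 replicates on every probe (Ccng1 at 2.41, 2.90 and 1.39, Mdm2 at 0.75 and 0.91). Arrays of one orientation from different replicates correlated as low as -0.31 on design 1 and -0.54 on design 2 over all probes, so the direction of single arrays is not settled. With the sign turned, the 15 member probes called higher below would be 15 called lower, and every negative value a positive one. One readout of replicate 4 on design 1 lacked 786 of its 7680 values (10.2%) and was left out. With it, no member was called on design 1, as given beside the results.

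Mitochondria carry a small genome of their own, which encodes core subunits of the respiratory chain. A dedicated ribosome inside the organelle translates it, but all protein components of that ribosome are encoded in the nucleus, made in the cytosol and imported. Proteins first cross the outer membrane through the TOM complex (Tomm20 and Tomm70a as receptors, Tomm40 as the channel) and are then sorted by the TIM complexes of the inner membrane, with small Timm proteins as chaperones in the space between. In vertebrates, loss of mitochondrial translation stops assembly of the respiratory chain complexes with subunits encoded in the mitochondrial genome. A few symbols go beyond their names: Mrps18a is a protein of the large subunit, Mrps36 a subunit of the 2-oxoglutarate dehydrogenase complex and Tomm34 a cytosolic co-chaperone. They were kept where their symbols put them.

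Promoters of nuclear genes for mitochondrial proteins are known for sites of NRF1, of ETS factors such as GABP, and of YY1. RefSeq promoters (GRCm38.p6, 250 bases before to 50 after the start) were matched to 61 of the 68 genes. The promoters of Mrpl45 (chr11:97315466-97315765, plus strand) and Mrpl30 (chr1:37890227-37890526, plus strand) are shown because these were the member genes still called after the dye-profile trend described below was removed. Those of Mrpl10 (chr11:97041332-97041631, plus strand) and Mrpl3 (chr9:105053018-105053317, plus strand) are shown as called genes of the same subunit that hold a motif searched for. Capitals mark the motif found: the NRF1 core in Mrpl10 and the ETS core in Mrpl3. Only exact words were searched for, and none was in the Mrpl45 and Mrpl30 windows. Both of these windows hold gcgcacgc, which has C where the NRF1 core searched for has T, so a variant site is not excluded.
Mrpl45: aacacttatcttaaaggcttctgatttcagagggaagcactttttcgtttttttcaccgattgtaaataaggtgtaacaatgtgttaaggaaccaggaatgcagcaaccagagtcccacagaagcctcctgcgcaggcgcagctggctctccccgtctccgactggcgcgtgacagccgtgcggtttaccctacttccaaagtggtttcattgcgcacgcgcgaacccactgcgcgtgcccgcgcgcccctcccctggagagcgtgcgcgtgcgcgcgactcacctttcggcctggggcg
Mrpl30: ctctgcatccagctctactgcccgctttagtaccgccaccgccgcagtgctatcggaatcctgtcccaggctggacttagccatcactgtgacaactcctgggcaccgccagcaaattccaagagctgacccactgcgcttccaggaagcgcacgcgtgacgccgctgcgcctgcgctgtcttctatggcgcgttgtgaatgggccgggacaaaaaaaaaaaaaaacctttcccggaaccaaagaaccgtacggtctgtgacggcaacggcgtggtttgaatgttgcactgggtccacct
Mrpl10: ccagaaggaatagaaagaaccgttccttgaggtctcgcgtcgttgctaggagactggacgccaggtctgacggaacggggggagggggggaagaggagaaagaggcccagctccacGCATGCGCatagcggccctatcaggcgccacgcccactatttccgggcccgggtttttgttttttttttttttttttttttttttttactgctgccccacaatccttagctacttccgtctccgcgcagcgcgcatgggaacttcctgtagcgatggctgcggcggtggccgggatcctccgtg
Mrpl3: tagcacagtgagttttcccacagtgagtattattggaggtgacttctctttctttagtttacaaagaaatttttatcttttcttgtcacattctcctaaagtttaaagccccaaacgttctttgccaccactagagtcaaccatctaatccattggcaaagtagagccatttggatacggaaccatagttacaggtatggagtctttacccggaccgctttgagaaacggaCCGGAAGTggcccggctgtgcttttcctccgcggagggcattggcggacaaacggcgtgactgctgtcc

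On both strands, the NRF1 core GCGCATGC was in 6 of 61 member promoters (9.84%), against 6.62% of the 5631 genes on the arrays with a promoter. The ETS and GABP core CCGGAAGT was in 11 (18.0%) against 9.98%, and the YY1 core AAGATGGC in 10 (16.4%) against 5.82%. At least 1 of these cores was in 25 member promoters (41.0%) against 20.7% of the genes on the arrays and 9.91% of all 27025 genes with a promoter. The E-box CACGTG was in 5 (8.20%) against 12.9%. By subgroup, at least 1 of the NRF1, ETS and YY1 cores was in 14 of 30 large subunit promoters, 5 of 12 small subunit promoters and 4 of 15 import promoters. Among genes called higher, Mrpl10 held the NRF1 core, Mrpl3, Tomm70a and Timm8a2 the ETS core, and Mrpl20 and Tomm20 the E-box. The called genes Mrpl23, Mrpl30, Mrpl45, Mrps25, Timm17b and Tomm5 held none of the exact words searched for. Mrpl13, also called, had no matched promoter and was not searched. These are matches of letters in a window and no more than that.

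The genes of the set as a whole shifted little, and those that passed the test were all higher in treated embryos. On design 1, 6 of 48 member probes (12.5%), or 0 with the failing readout used, were called higher and 0 lower by limma at a Benjamini-Hochberg adjusted p of 0.05 over all probes, where 10.2% of all 7680 probes were called higher and 5.77% lower. On design 2, 9 of 34 (26.5%) were called higher and 0 lower, where 19.8% of 7599 probes were called higher and 8.07% lower. At an unadjusted p under 0.05, limma had 8 higher and 2 lower member probes on design 1 (Mrpl2 and Mrps27 the lower ones) and 15 higher and 0 lower on design 2, and the ordinary one-sample test with the same adjustment also called 0 lower on either. The share called higher was thus near the background on design 1 and somewhat above it on design 2, and no test of the set was made. The 15 probes stood for 13 genes: 7 of the large subunit, 1 of the small subunit and 5 of import. In RNA of whole embryos, fewer cells of a type and less RNA per cell cannot be told apart.

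The median over the member probes was 0.06 on design 1 and 0.10 on design 2, against -0.002 and 0.017 over all probes. In each replicate the member median lay above that of all probes, by 0.03 to 0.10 on design 1 and by 0.02 to 0.15 on design 2. Above 0 were 34 of 48 member probes on design 1 and 30 of 34 on design 2, against 49.2% and 54.1% of all probes. Member means spanned -0.15 (Mrps27) to 0.27 (Timm8a2) on design 1 and -0.10 (Timm50) to 0.27 (Mrpl3) on design 2, which is a narrow range beside the 2.90 of Ccng1. These directions are relative to the array medians: before centring, the treated over control ratio of the median probe was between -0.23 and -0.44 in the replicates of design 1 and between -0.12 and -0.66 on design 2, and without centring all 4 subgroup medians of either design lay below 0.

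Set side by side by symbol, the large subunit median stood above that of the small subunit on both designs, and its order against import was not fixed. On design 1 the median was 0.07 over 21 large subunit probes, 0.03 over 11 small subunit probes, 0.05 over 12 import probes and 0.04 over the 4 factors. On design 2 it was 0.11 over 18 large subunit probes, 0.07 over 4 small subunit probes, 0.13 over 11 import probes, and Mtif2, the only factor there, had 0.12. Mrps18a and Mrps36, kept in the small subunit by symbol alone, had 0.097 and 0.099 on design 1. Both lie above the small subunit median there, so that median and its distance from the large subunit depend on where these genes are put. The median of the large subunit exceeded that of the small subunit in 4 of 5 replicates on either design, with differences from -0.03 to 0.06 on design 1 and from -0.06 to 0.15 on design 2. Against import it was above in 3 of 5 replicates on either design. The differences between subgroups were smaller than the range over replicates, so the subgroups did not separate at this spread.

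By replicate, the large subunit medians on design 1 were 0.04, 0.05, 0.13, 0.11 and 0.05, those of the small subunit -0.03, 0.03, 0.16, 0.11 and 0.004, and those of import 0.05, -0.04, 0.04, 0.13 and -0.01. On design 2 they were 0.27, 0.10, 0.12, 0.14 and 0.01 for the large subunit, 0.15, -0.05, 0.03, 0.09 and 0.07 for the small subunit, and 0.30, 0.14, 0.06, 0.08 and -0.04 for import. Replicate 1 of design 2 was the highest in all of these, and there the median over all probes was also the highest, at 0.11 against -0.01 to 0.02 in the other replicates.

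**Figure D1:**
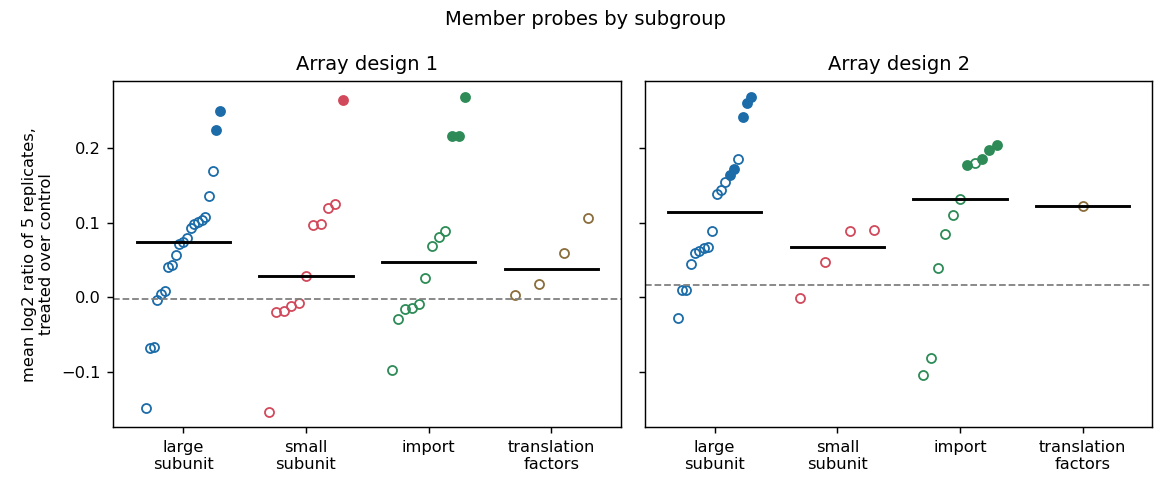
Mean log2 ratio of treated over control embryos (y axis, 5 replicates) for each member probe, by subgroup and array design; filled points passed an adjusted p of 0.05, black bars are subgroup medians and the dashed line is the median over all probes. The medians lie between 0.03 and 0.13, and 15 of 82 points are filled.

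In the large subunit, 2 of 21 probes on design 1 (9.5%) and 5 of 18 on design 2 (27.8%) were called higher, and none lower. Of all probes, 10.2% and 19.8% were called higher. Mrpl45, a large subunit protein near the exit of the peptide tunnel, had 0.33, 0.28, 0.24, 0.28 and 0.18 in the 5 replicates of design 2 (0.26 ± 0.06, SD, n = 5; limma adjusted p = 0.000684). Mrpl30 had 0.30, 0.33, 0.23, 0.20 and 0.15 (0.24 ± 0.07, SD, n = 5; limma adjusted p = 0.00162). In both genes every replicate lay well above 0 and the replicates spread little. Either gene kept its call with each replicate left out in turn.

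Mrpl3, a core protein of the large subunit, had 0.34, 0.07, 0.68, 0.16 and 0.10 on design 2 (0.27 ± 0.25, SD, n = 5; limma adjusted p = 0.00726). Replicate 3 stood far above the rest, and the call was lost without replicate 1 (adjusted p = 0.0842) or replicate 3 (0.066). Mrpl20 had 0.32, 0.17, 0.11, 0.12 and 0.15 (0.17 ± 0.09, SD, n = 5; limma adjusted p = 0.0214), with replicate 1 apart and the call lost without replicate 1 or 2.

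Mrpl10, which belongs to the stalk where translation factors bind, had 0.21, 0.15, 0.32, 0.41 and 0.16 on design 1 (0.25 ± 0.11, SD, n = 5; limma adjusted p = 0.0178). All 5 replicates were above 0.1, and the call was lost only without replicate 4 among the fits that left out 1 replicate (adjusted p = 0.072). Mrpl13 had 0.25, 0.03, 0.21, 0.29 and 0.34 (0.22 ± 0.12, SD, n = 5; limma adjusted p = 0.0274); replicate 2 was near 0, and the call did not hold without replicate 1, 4 or 5.

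Mrpl23 was measured on both designs. On design 2 it had 0.33, 0.17, 0.14, 0.18 and 0.005 (0.16 ± 0.12, SD, n = 5; limma adjusted p = 0.0322), a call lost without replicate 1, 2, 3 or 4. On design 1 it had 0.07, 0.07, 0.10, 0.04 and 0.08 (0.07 ± 0.02, SD, n = 5), above 0 in every replicate and not called (limma adjusted p = 0.369). Mrpl50, also on both designs, had means of 0.04 ± 0.13 and 0.06 ± 0.09 (SD, n = 5 each) and was called on neither.

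The remaining large subunit probes ranged from -0.15 (Mrpl2) to 0.17 (Mrpl49) on design 1 and from -0.03 (Mrpl44) to 0.19 (Mrpl4) on design 2. Where a gene had several probes on design 1 none of them was called. Mrpl15 had -0.07 ± 0.19 on one probe and 0.14 ± 0.14 on the other, and Mrpl48 had -0.07 ± 0.13 and -0.003 ± 0.12 (SD, n = 5 each). Mrpl2 was below 0 in all 5 replicates without passing the test (-0.15 ± 0.07, SD, n = 5; limma adjusted p = 0.081). Mrpl2, Mrpl49, Mrpl44 and Mrpl4 were picked for their place at the ends of the range.

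In the small subunit, 1 of 11 probes on design 1 (9.1%) and 0 of 4 on design 2 were called higher, and none lower. The shares over all probes were 10.2% and 19.8%. Mrps25 had 0.01, 0.35, 0.16, 0.42 and 0.39 on design 1 (0.27 ± 0.18, SD, n = 5; limma adjusted p = 0.0229). Replicate 1 was near 0 and 3 replicates were above 0.3, and the call was lost without replicate 2 or 4. Of the other small subunit probes, the range was -0.15 (Mrps27) to 0.13 (Mrps7) on design 1 and -0.001 (Mrps35) to 0.09 (Mrps15) on design 2. Mrps27, Mrps35 and Mrps15 were picked as ends of that range. Mrps27, a pentatricopeptide repeat protein, was below 0 in all 5 replicates (-0.15 ± 0.05, SD, n = 5; limma adjusted p = 0.069).

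Mrps7 and Mrps17 had 2 probes each, and neither gene was called. Mrps7 had -0.02 ± 0.07 on one probe and 0.13 ± 0.07 on the other on design 1 (SD, n = 5 each), so the probes disagreed by more than the SD of either. Mrps17, the small subunit gene with the smallest p on design 2, had 0.15, 0.03, 0.07, 0.08 and 0.12 on one probe (0.09 ± 0.04, SD, n = 5; limma adjusted p = 0.195), above 0 in every replicate, and 0.05 ± 0.07 on the other.

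In the import machinery, 3 of 12 probes on design 1 (25%) and 4 of 11 on design 2 (36.4%) were called higher, and none lower. The shares over all probes were 10.2% and 19.8%. All 3 probes of Tomm20, the receptor for presequences on the outer membrane, were called higher, and it was the only member called on both designs. On design 1 it had 0.23, 0.09, 0.05, 0.37 and 0.34 (0.22 ± 0.15, SD, n = 5; limma adjusted p = 0.0376). On design 2 one probe had 0.32, 0.16, 0.13, 0.18 and 0.20 (0.20 ± 0.07, SD, n = 5; limma adjusted p = 0.0085), whereas the second had 0.42, 0.14, 0.19, 0.15 and 0.11 (0.20 ± 0.13, SD, n = 5; limma adjusted p = 0.0104). All 15 values were above 0. The call on design 1 was lost without replicate 1, 2, 4 or 5, one on design 2 was lost without replicate 1 (adjusted p = 0.0656), and the other held in all 5 such fits.

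The 3 Tomm20 probes also had similar values within each dye orientation. With treated embryos in channel 1 they had 0.02 on design 1 and 0.06 and -0.02 on design 2, and with treated embryos in channel 2 they had 0.41, 0.34 and 0.43. The mean of both orientations without turning the ratio, a dye effect, was -0.20, -0.14 and -0.23. It was called on none of the 3 probes (limma adjusted p = 0.326, 0.681 and 0.472). The higher mean of Tomm20 thus lay almost wholly in the arrays with treated embryos in channel 2. The cause of this difference between orientations was not tested.

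Tomm70a, the receptor for proteins with internal signals such as metabolite carriers, had 0.26, 0.04, 0.01, 0.36 and 0.42 on design 1 (0.22 ± 0.19, SD, n = 5; limma adjusted p = 0.0496), just inside the threshold. It had 0.36, -0.03, -0.04, 0.03 and 0.10 on design 2 (0.08 ± 0.16, SD, n = 5; limma adjusted p = 0.294). The design 1 call was lost without replicate 1, 2, 4 or 5, and the mean there was -0.12 with treated embryos in channel 1 and 0.56 with them in channel 2.

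Tomm22, the central receptor of the TOM complex, was not called on design 1 (0.03 ± 0.08) or design 2 (0.11 ± 0.10, SD, n = 5 each). Tomm5, a small TOM subunit, had 0.45, 0.17, 0.09, 0.14 and 0.08 on one probe of design 2 (0.19 ± 0.15, SD, n = 5; limma adjusted p = 0.0238) and 0.22, 0.23, 0.20, 0.06 and -0.06 on the other (0.13 ± 0.13, SD, n = 5; limma adjusted p = 0.084). The first was above 0 in every replicate, with replicate 1 apart, and its call was lost without replicate 1 or 2.

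On the inner membrane, Timm17b, a channel subunit of the presequence translocase, had 0.30, 0.41, 0.04, 0.18 and -0.04 on design 2 (0.18 ± 0.18, SD, n = 5; limma adjusted p = 0.0377). It was the only called probe with a replicate below 0, its orientations had opposite signs (0.69 and -0.34), and the call was lost without replicate 1, 2 or 4. Timm8a2, a close relative of the small chaperone Timm8a1, had 0.02, 0.05, 0.11, 0.57 and 0.59 on design 1 (0.27 ± 0.29, SD, n = 5; limma adjusted p = 0.0489). Replicates 4 and 5 held most of its mean, and the call was lost without replicate 1, 2, 4 or 5. Timm8a1 itself had 0.08 ± 0.09 (SD, n = 5) and was not called. The cDNA probes of such close copies can share signal, so both values are uncertain.

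Timm50, the receptor of the same translocase, had -0.10 ± 0.13 on one probe and 0.04 ± 0.10 on the other on design 2, and Timm13, a small chaperone, had -0.10 ± 0.09 and -0.01 ± 0.10 on design 1 (SD, n = 5 each). Neither was called, and neither gene's probes lay beyond 0 in all replicates. The other import probes that were not called lay between -0.03 (Timm8b) and 0.09 (Timm44) on design 1 and between -0.08 (Timm22) and 0.18 (Timm21) on design 2, the ends being named for their place in the range.

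No translation factor was called by limma, and 0 of the 5 probes had an unadjusted p under 0.05. Gfm2, a ribosome recycling factor, had the smallest p on design 1, with 0.32, 0.08, 0.30, 0.06 and -0.23 (0.11 ± 0.22, SD, n = 5; limma adjusted p = 0.335). Mtif2, initiation factor 2, had 0.02 ± 0.07 on design 1 and 0.12 ± 0.16 on design 2 (SD, n = 5 each; limma adjusted p = 0.86 and 0.122). Tufm, elongation factor Tu, had 0.06 ± 0.16, and Gfm1, elongation factor G, had 0.003 ± 0.025 (SD, n = 5 each), with its 5 replicates between -0.03 and 0.03.

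**Figure D2:**
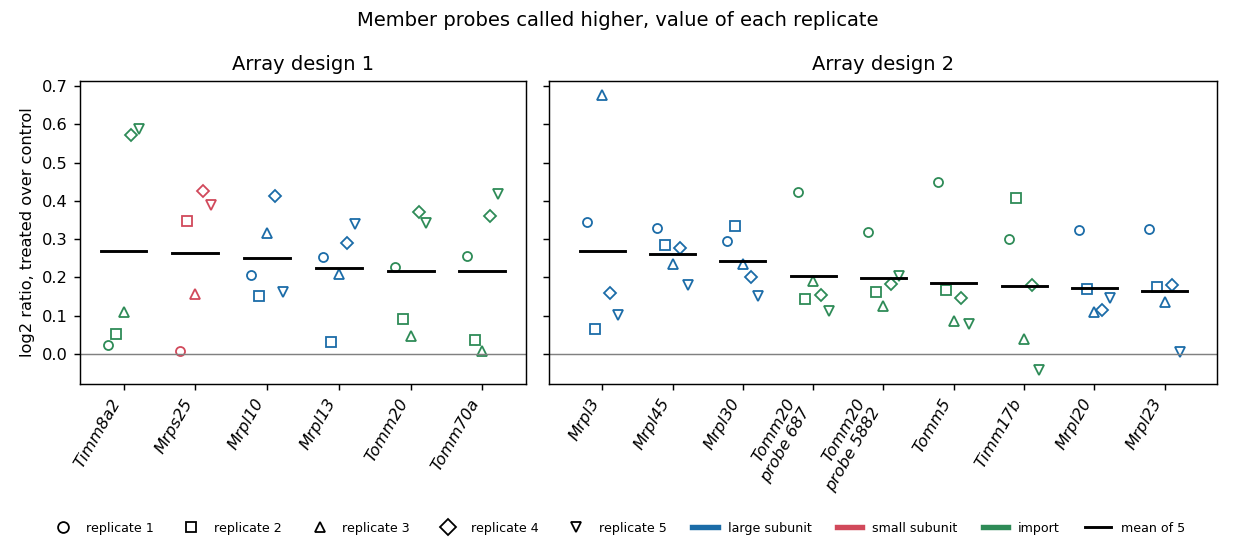
Log2 ratio of treated over control embryos (y axis) in each of 5 replicates (symbols) for the 15 member probes called higher, with the mean as a bar and the subgroup as the colour. Mrpl45 spreads least of the 15, Timm8a2 rests on replicates 4 and 5, Mrpl3 is highest in replicate 3, and Timm17b has the only value below 0.

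The slide series of the labels (2000 or 3000) splits the replicates: replicates 1 and 2 of design 1 and 1 to 3 of design 2 were on 2000 slides. On design 1 all 6 called probes were higher within the 3000 series than within the 2000 series, for example 0.42 against 0.04 for Timm8a2, 0.32 against 0.18 for Mrps25 and 0.30 against 0.18 for Mrpl10. On design 2 all 9 were lower within the 3000 series, for example 0.13 against 0.36 for Mrpl3, 0.07 against 0.25 for Timm17b, 0.18 against 0.29 for Mrpl30 and 0.23 against 0.28 for Mrpl45. Every called probe was above 0 within both series. Within a series alone, 0 and 16 member probes were called higher in the 2000 series on designs 1 and 2, and 1 and 1 in the 3000 series. The share of all probes called in these fits is not given here, so the counts do not set the members apart.

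Leaving out 1 replicate changed the counts as well. On design 1 the number called higher was 2, 2, 6, 0 and 2 without replicates 1 to 5, and on design 2 it was 3, 5, 9, 7 and 16. These counts too stand without the share of all probes called in the same fit, which may have moved with them. With the failing readout of replicate 4 used, 0 members were called on design 1, and the adjusted p of Mrpl10 and Mrpl13 became 0.0516, that of Mrps25 0.0536 and that of Timm8a2 0.142. The means of these 4 genes were then 0.28, 0.22, 0.27 and 0.40.

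Many members differed more between dye orientations than between treated and control embryos. On design 1 the dye part (the mean of both orientations without turning the ratio) was called for 9 of 48 member probes and for 1293 of all 7680 probes. These were Mrpl58, Mrpl19, Mrpl46, Mrps9, Mrps18a, Mrps10, Tomm40, Tufm and Gfm2, named after their values were seen. With treated embryos in channel 1, Mrpl19 had 0.92, Tufm 0.88, Mrpl58 0.84 and Mrps9 0.82. With treated embryos in channel 2 the same genes had -0.76, -0.76, -0.69 and -0.85. Their treatment values, the mean of both, were 0.08, 0.06, 0.07 and -0.02, and none was called.

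On design 2 no dye part was called for any member or for any of the 7599 probes. Its mean still ran from -1.05 to 0.94 over all probes and from -0.23 to 0.55 over the members. The lack of calls therefore does not show that design 2 was free of a dye effect. The signs of the orientations were opposite for 35 of 48 member probes on design 1 and 18 of 34 on design 2, both were above 0 for 11 and 14, and both were below 0 for 2 and 2. These signs were not counted over all probes, so the counts do not set the members apart. Of the 15 called probes, 11 were above 0 in both orientations. Mrpl45 had 0.24 with treated embryos in channel 1 and 0.29 with them in channel 2, and Mrpl30 had 0.27 and 0.22, so the values of these 2 genes were close in both orientations, although neither gene was called from one orientation alone. Mrpl10 had 0.33 and 0.17, and Mrpl3 0.52 and 0.01.

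**Figure D3:**
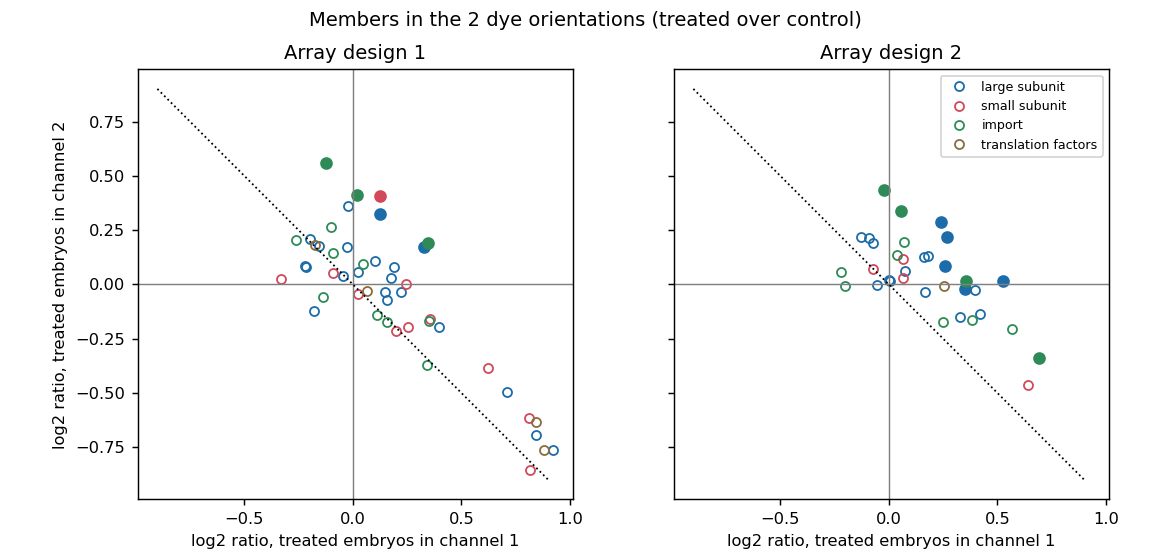
Mean log2 ratio of treated over control embryos for each member probe with treated embryos in channel 1 (x axis) and in channel 2 (y axis), by array design; filled points were called higher, and the dotted line marks equal size with opposite sign. On design 1, 9 member probes with a called dye part run along the dotted line to the lower right, with Mrpl19 at 0.92 and -0.76.

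Over all probes, the treatment values followed the profile of the dye part, and a smooth trend on it took 34.4% to 74.0% of their variance in the replicates of design 1 and 35.3% to 61.6% on design 2. With that trend removed, 1% of all probes on design 1 were called higher and 0.56% lower, and 3.18% and 1.83% on design 2. Of the members, 0 were then called on design 1 and 2 higher on design 2, with 0 lower on both. The 2 were Mrpl45 (0.18, limma adjusted p = 0.024) and Mrpl30 (0.17, limma adjusted p = 0.045). The member median became 0.004 on design 1 and 0.03 on design 2. By subgroup it became 0.02, -0.01, -0.02 and 0.01 for the large subunit, small subunit, import and factors on design 1, and 0.06, -0.03 and 0.02 for the first 3 on design 2.

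The 3 Tomm20 probes became 0.01, 0.03 and 0.02, so almost nothing of their mean of about 0.2 was left. Mrpl10 became 0.12 and Mrpl3 0.14, neither called, and Timm8a2 was 0.29 with an adjusted p of 0.295. A probe's dye effect of equal size in both orientations cancels in these means, and what the trend across probes holds was not tested.

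**Figure D4:**
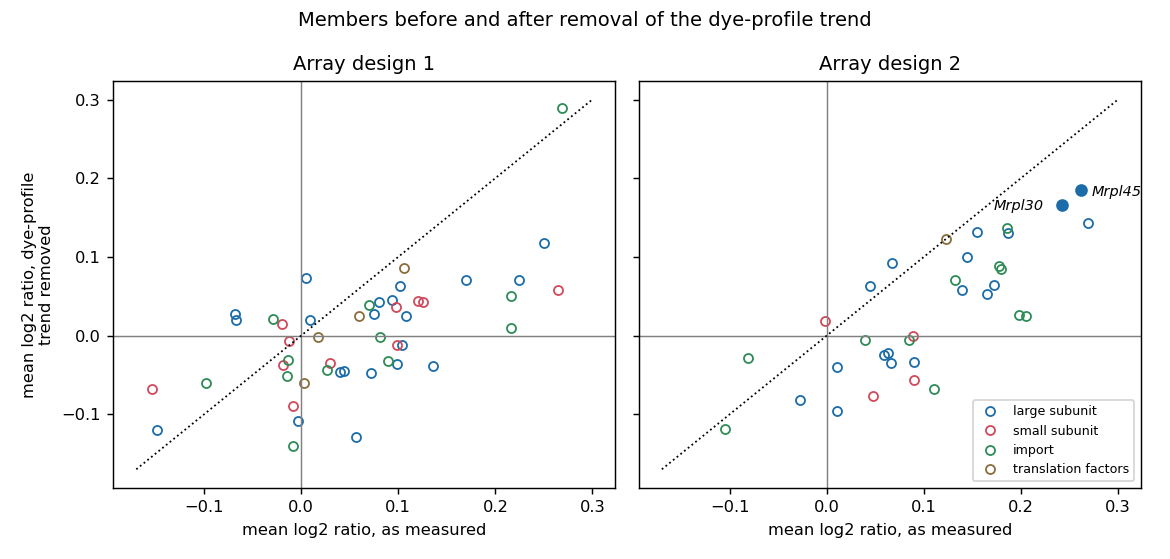
Mean log2 ratio of treated over control embryos (5 replicates) of each member probe as measured (x axis) and after removal of the dye-profile trend (y axis), by array design; the dotted line marks equal values and filled points were called after removal. Mrpl45 and Mrpl30 are the filled points, at 0.18 and 0.17. After removal 33 of 48 probes on design 1 and 26 of 34 on design 2 lie closer to 0. The same count was not made over all probes, so it does not set the members apart.

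Other genes of mitochondrial translation had small medians, 0.005 on design 1 and 0.007 on design 2, and more of their calls were lower than higher. Of 12 probes on design 1, 0 were called higher and 1 lower, Ears2, the mitochondrial glutamyl-tRNA synthetase (-0.19 ± 0.10, SD, n = 5; limma adjusted p = 0.0471). Of 17 probes on design 2, 1 was called higher, Oxa1l, which inserts newly made proteins into the inner membrane (0.16 ± 0.08, adjusted p = 0.0318). The 3 called lower were both probes of Nsun4, a methyltransferase in ribosome assembly (-0.16 ± 0.13 and -0.16 ± 0.05), and Mtg1, an assembly GTPase (-0.16 ± 0.13; SD, n = 5 each). At an unadjusted limma p under 0.05, 1 probe was higher and 2 lower on design 1, and 1 higher and 5 lower on design 2. Over all probes, 10.2% and 19.8% were called higher and 5.77% and 8.07% lower on the 2 designs. With the trend removed none of the 29 was called.

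Among import and quality control genes under other names, 2 of 12 probes on design 1 (16.7%) and 4 of 15 on design 2 (26.7%) were called higher, where 10.2% and 19.8% of all probes were, and 0 were called lower by limma (2 and 0 at an unadjusted p under 0.05). Hspd1, the matrix chaperonin HSP60, accounted for both calls on design 1. One probe had 0.17, 0.51, 0.25, 0.55 and 0.88 (0.47 ± 0.28, SD, n = 5; limma adjusted p = 0.00508). The second had a mean of 0.35 ± 0.17 (adjusted p = 0.0069). On design 2 the calls were both probes of Hspa9, the matrix HSP70 that pulls proteins in (0.29 ± 0.06 and 0.17 ± 0.06), Phb, prohibitin (0.22 ± 0.10), and Gfer, the oxidase that recharges import into the intermembrane space (0.21 ± 0.15; SD, n = 5 each). With the trend removed, Gfer was called higher (0.26, limma adjusted p = 0.0221), Phb2 lower (-0.18, limma adjusted p = 0.0345), and no other gene of this list was called.

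Genes of mitochondrial DNA upkeep and transcription gave 0 limma calls among 3 and 4 probes on the 2 designs, and 0 at an unadjusted p under 0.05. Among nuclear regulators, Ppargc1b, a coactivator of mitochondrial genes, was lower on design 1 (-0.27 ± 0.15, SD, n = 5; limma adjusted p = 0.0184), the only call among 10 probes. Atf4, which drives transcription in amino acid and other cell stress, was lower on design 2, the only call among 5 probes. Its replicates had -0.42, -0.50, -0.49, -0.26 and -0.38 (-0.41 ± 0.10, SD, n = 5; limma adjusted p = 9.53e-06), and it was the only regulator called after trend removal (-0.59).

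The cytosolic ribosome and the respiratory chain had larger medians as measured than either subunit of the mitochondrial ribosome on both designs, a difference that was not tested. Cytosolic ribosomal protein probes had a median of 0.32 on design 1, with 49 of 54 called higher and 1 lower, and 0.30 on design 2, with 108 of 110 called higher. Respiratory chain probes had medians of 0.18 and 0.21, with 15 of 36 and 39 of 54 called higher. With the trend removed, 1 and 5 cytosolic ribosome probes and 1 and 6 respiratory chain probes were still called higher. The 1 cytosolic ribosome probe on design 1 was of Rps27l, at 0.79 as measured and 0.52 after removal (limma adjusted p = 0.00244). After removal the medians became 0.04 and 0.02 for the cytosolic ribosome and 0.02 and 0.07 for the respiratory chain. The large subunit of the mitochondrial ribosome then had 0.02 and 0.06, which on design 2 was above the cytosolic ribosome.

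Markers of cell types also moved. On design 2, 8 erythroid probes stood for 4 genes, and 7 of them were called higher, with a median of 0.58 over the 8. The 7 were all of globins: 4 probes of the embryonic globin Hbb-y at 0.58 to 0.63, Hba-x at 0.58, and Hbb-b1 at 0.29 and 0.50. Alas2, the other gene, was not called (-0.002, limma adjusted p = 0.985). With the trend removed 5 of the 8 were called higher and the median was 0.30. The 1 erythroid probe on design 1, of Gata1, was not called (-0.10). Visceral endoderm markers gave 0 limma calls among 4 and 1 probes (1 lower and 0 at an unadjusted p under 0.05), Tubb3 was the neural call (0.28, 1 of 2 probes), Prl8a2 (-0.23, the only placental or decidual probe on design 1) and Dcn (-0.18, 1 of 2 on design 2) were lower, and no heart or muscle marker was measured. With the trend removed these 3 were not called, at 0.07 for Tubb3, -0.03 for Prl8a2 and -0.07 for Dcn. The part of such shifts in the values of the members was not tested.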

How the data were processed

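Probes on 2 array designs were named through the platform annotation (4749 and 4935 probes with 1 symbol, 227 and 275 with several, 2704 and 2470 with none), and 4712 and 4884 matched the GRCm38.p6 gene table, which changed no symbol. The authors deposited 1 log2 ratio per spot, whose base 2 is assumed. Of scanner, background correction and normalization nothing is stated in the labels, nor of what the B mark on a second readout of each slide stands for. Spots of one accession were averaged, which left 7680 and 7599 probes.

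Each array was centred on its median, control-over-treated ratios were turned, readouts averaged, and the mean of both orientations taken as 1 value per replicate. The readout missing more than 5% of its values was left out. A two-sided moderated test against 0 (limma 3.58.1, lmFit and eBayes, R 4.3.3) was made on every probe measured in 3 or more replicates, apart for each design, with Benjamini-Hochberg adjustment at 0.05. For the dye-profile trend, the treatment value was smoothed over 3 leading principal components of the dye part (mgcv 1.9.3). The limma fit, without the trend, was tested on simulated data.

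The members and lists were chosen with earlier results of these data known. Named with all replicates are, in each subgroup and design, up to 4 called probes each way with the largest mean (or the 1 with the smallest p), and all members with several probes are named; of the other lists, up to 3 called members with the smallest p. Probes with several symbols were left out. Alternatives covered centring, scaling, readouts, orientation, slide series, variance prior, missing values, threshold, array position, the trend, gene means and each replicate.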

Additional observations from a re-analysis of the deposited data

Results flagged for a closer look

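Of 47 sets of 5 replicate values or medians examined for a single far value, 4 held one replicate whose gap to the nearest other exceeded 0.71 of the range, and chance gives about 1 in 20. On design 2, replicate 1 stood apart for 3 called probes: it was 0.42 for one Tomm20 probe, where the others lay between 0.11 and 0.19, 0.45 for one Tomm5 probe, where the others lay between 0.08 and 0.17, and 0.32 for Mrpl20, where the others lay between 0.11 and 0.17. The second Tomm20 probe had 0.32 in that replicate and the second Tomm5 probe 0.22. On design 1, replicate 4 stood apart for one Timm13 probe at 0.16, where the others lay between -0.08 and -0.04. Replicate 4 is the one whose failing readout was left out.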

How the results depend on the processing

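Of the 15 calls, 12 were lost in at least 1 fit without a replicate; those of Mrpl45, Mrpl30 and one Tomm20 probe on design 2 were not. Without centring, 0 members were called higher and 41 and 31 lower on designs 1 and 2, and the medians of large subunit, small subunit, import and factors were -0.24, -0.28, -0.26 and -0.27 on design 1 and -0.31, -0.36, -0.30 and -0.31 on design 2. The named members that then changed sign were, on design 1, Mrpl23 -0.24, Tomm22 -0.29, Mtif2 -0.30, Tomm70a -0.097, Timm8a2 -0.044, Mrps7 -0.19, Mrpl13 -0.088, Mrpl10 -0.063, Mrpl50 -0.27, Gfm2 -0.21, Mrpl15 -0.18, Mrps25 -0.048, Tomm20 -0.096, and on design 2, Mrpl30 -0.19, Tomm5 -0.30 and -0.24, Mrpl50 -0.37, Tomm20 -0.22 and -0.23, Mrpl23 -0.26, Timm17b -0.25, Mtif2 -0.31, Timm50 -0.39, Tomm70a -0.34, Mrpl45 -0.17, Mrpl3 -0.16, Mrpl20 -0.26, Mrps17 -0.38 and -0.34, Tomm22 -0.32. The count called higher was 0 on design 1 with all readouts used. It was 2 and 3 with plain readouts only, and 0 on design 1 with B readouts only. The ordinary one-sample test in each probe gave 0 and 3, against 6 and 9 from limma. A threshold of 0.01 gave 0 and 4, the term for the slide series gave 1 on design 1, and single arrays with a replicate block gave 3 on design 1. Within the 2000 series it was 0 and 16, and within the 3000 series 1 and 1. With treated embryos in channel 1 only, 11 and 3 were called higher, the design 1 medians of large subunit, small subunit and factors were 0.12, 0.25 and 0.46, and Tomm70a (-0.12, design 1) and one Tomm20 probe (-0.024, design 2) changed sign. With channel 2 only, 2 and 0 were called higher and 9 lower on design 1, the design 1 medians of small subunit, import and factors were -0.16, 0.12 and -0.33, and Gfm2 (-0.63), Mrpl23 (-0.021, design 2) and Timm17b (-0.34) changed sign. With the trend removed 0 and 2 were called higher, and the medians were 0.019 for the large subunit on design 1 and -0.028 for the small subunit on design 2. The sign changes listed above are of probes called in the main or the alternative fit. Named probes called in neither also changed sign: 4 with channel 1 only, 8 with channel 2 only and 14 with the trend removed. Without 1 replicate, 0 to 6 were called higher on design 1 and 3 to 16 on design 2. Apart from the fit with the trend removed, the share of all probes called is not given beside these counts. They therefore show how the calls depend on the processing and do not set the members apart. The cause was not tested. Treated and control embryos are paired within each array; with 1 group there is no second one to pair by replicate number, and the replicate block above is over arrays. Array scaling, robust variances, complete values, position trend and gene means left the counts within 1.5 times.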

Other observations

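Probes annotated to several genes were left out of the set, and 5 of them carry a symbol of it. Of these, 3 list Mrps25 with its neighbour Nr2c2 and had means of 0.02, -0.06 and -0.03 without a call, whereas the probe annotated to Mrps25 alone had 0.27 ± 0.18 (SD, n = 5) and was called higher. The probe that lists Mrps6 with Slc5a3 and BF642829 was called higher on design 2 (0.22 ± 0.16, SD, n = 5; limma adjusted p = 0.0106). The probe that lists Timm23 with Gm10273 had 0.14 ± 0.18 (SD, n = 5; limma adjusted p = 0.166).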
